A study of Mus musculus with 179 samples.

Results

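The genes described here are 4 that red blood cell precursors use to make haemoglobin, followed in 7 combinations of brain region and sex of mice that had met stress in early life, in adulthood, in both or in neither. They are Hba-a1 and Hba-a2, which encode the alpha chain, Hbb-b1, which encodes the beta chain, and Alas2, the erythroid enzyme that starts haem synthesis. These 4 of the 42887 genes in the 3 expression tables were selected on measured values, since earlier results of these data showed them higher after adult defeat in males of standard rearing. That comparison is therefore given below as a description with no test. Tests were kept for the males with early life stress, for the females and for early life stress alone.

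Haemoglobin is built from alpha and beta chains, each holding a haem group that carries oxygen. Developing red cells make these chains in very large amounts, and young red cells that have lost their nucleus still hold globin messenger RNA for a time in the circulation. Alas2 makes the first haem precursor in developing red cells, while its relative Alas1 serves other tissues. Brain tissue holds blood vessels, so RNA of red cells is part of what a tissue punch contains. Low globin expression in neurons and glia has also been described.

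The study took punches of ventral tegmental area (VTA), nucleus accumbens (NAc), prefrontal cortex (PFC) and hippocampus (HIP) from adult C57BL/6 mice, 24 h after behavioural testing. Males were either controls or had undergone chronic social defeat, in which a mouse is repeatedly attacked by an aggressor. Females were either controls or had undergone sub-threshold variable stress, a short series of differing stressors. Male VTA, male NAc and the remaining libraries were normalised apart, and the labels do not say whether regions share animals. Before weaning, mice had standard rearing or early life stress. The stress ran from postnatal day 10 to 20, except that a further set of male NAc groups had it from day 2 to 12 and that the labels of the male VTA samples give no days. The 163 RNA libraries form 30 groups of 4 to 6. Libraries of male VTA and male NAc each pool punches of 3 mice, and all others come from single mice. The labels give no genotype beyond the strain. The groups differ by region, sex, rearing, adult stress and pooling. Sex goes with the kind of adult stress, so their effects cannot be told apart.

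Recovered depth ran from 13601728 to 42746141 reads per library outside male VTA, where only length-scaled values (RPKM, reads scaled by gene length and library size) are at hand and the depth is unknown. Values elsewhere are normalised reads, that is, a gene's reads divided by 1 factor per library. The region labels were checked against markers. In male VTA the dopamine neuron genes Th and Slc6a3 lay at 110 to 357 and 135 to 465 RPKM. The striatal gene Adora2a lay at 7694 to 14531 normalised reads in male and at 5641 to 10284 in female NAc, and the cortical gene Tbr1 at 4379 to 6757 in PFC. The dentate gyrus gene Prox1 spread from 515 to 5929 in HIP, and 1 male PFC library, numbered 4 after standard rearing and defeat, held Slc6a3 at 3853. By rules on the sex-linked genes Xist and Ddx3y and the choroid plexus gene Ttr, 14 libraries stood apart. They may be mislabelled or hold neighbouring tissue, and Hbb-b1 results that hold them are also given without them. Male VTA was not screened by these rules. In 10 female NAc libraries the adult label repeats the sex, and the title gave the group.

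The promoters of the members are shown because the alpha, beta and haem enzyme genes lie on 3 chromosomes yet moved together in the libraries. Each run gives the 250 bases before the RefSeq start in GRCm38.p6, read 5′ to 3′ on the gene's strand, at chr11:32283422-32283671 (+) for Hba-a1, chr7:103827929-103828178 (-) for Hbb-b1, which RefSeq calls Hbb-bs, and chrX:150547167-150547416 (+) for Alas2. Capitals mark AGATAA or TGATAA, words bound by GATA factors, as well as CACCC and the words CCAAT and then ATATAA, on either strand.
Hba-a1: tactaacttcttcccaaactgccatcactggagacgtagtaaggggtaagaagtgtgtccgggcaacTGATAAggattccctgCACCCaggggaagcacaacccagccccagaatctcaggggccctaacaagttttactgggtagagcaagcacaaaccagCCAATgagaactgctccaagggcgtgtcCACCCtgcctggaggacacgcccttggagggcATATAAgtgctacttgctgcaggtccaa
Hbb-b1: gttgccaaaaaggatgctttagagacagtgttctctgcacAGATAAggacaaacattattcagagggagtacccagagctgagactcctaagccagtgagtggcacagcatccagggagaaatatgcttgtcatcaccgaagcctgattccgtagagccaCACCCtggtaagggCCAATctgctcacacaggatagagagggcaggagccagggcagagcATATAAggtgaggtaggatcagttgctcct
Alas2: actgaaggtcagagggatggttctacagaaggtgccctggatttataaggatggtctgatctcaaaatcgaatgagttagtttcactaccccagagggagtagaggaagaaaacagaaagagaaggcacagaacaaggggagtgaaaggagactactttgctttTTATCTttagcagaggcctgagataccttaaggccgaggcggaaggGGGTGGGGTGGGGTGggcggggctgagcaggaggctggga
In Hba-a1 the TGATAA word starts 183 bases before the transcription start, CACCC starts at 167 and 60, CCAAT at 88 and ATATAA at 28. Hbb-b1 holds AGATAA at 210, CACCC at 90, CCAAT at 76 and ATATAA at 30. Alas2 holds AGATAA on the opposite strand at 86 and 3 adjacent opposite-strand CACCC words at 40, 35 and 30, with neither CCAAT nor ATATAA in this window. Of 32851 RefSeq promoters of the same length, 16.6% hold AGATAA or TGATAA, 52.0% hold CACCC, 33.8% CCAAT and 9.1% ATATAA. One of the GATA words together with CACCC occurs in 7.11% of all promoters and in 4 of 4 members, of which the alpha pair is nearly 1 sequence. The window of Hbb-b2, the beta chain gene next to Hbb-b1, holds neither GATA word, and it holds each of the other words. These matches describe the letters in the window and say nothing of binding in these tissues.

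The alpha genes cannot be told apart with certainty. The Hba-a2 promoter is the Hba-a1 promoter shifted by 3 bases, with 247 of 247 compared bases identical, and their coding sequences share 428 of 429 bases. Hbb-b1 shares 443 of 444 coding bases with its neighbour Hbb-b2, while only 51.0% of their promoter bases match without gaps. Reads of either pair can be split or dropped by the authors' counting, so the level of each single chain gene is uncertain. With each pair summed, the log2 fold change after early life stress and defeat was 1.42 for the beta pair and 1.49 for the alpha pair in PFC, against 1.40 for Hbb-b1 and 1.51 for Hba-a1 alone.

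In males of standard rearing, the comparison that chose the genes, all 4 were higher after defeat in all 4 regions. Of all genes tested, 41.1% to 52.5% were higher there. The 16 log2 fold changes ran from 0.66 to 1.24 with a median of 1.12, while the median of all genes tested lay within -0.02 and 0.03 in every comparison. In the VTA, Hbb-b1 was at 45.3, 33.0, 24.4 and 19.8 RPKM in the 4 control pools and at 38.0, 60.3 and 145 RPKM (lowest, median, highest) in the 6 defeat pools. The highest pools stood well above the controls, but the groups overlapped. Alas2 was at 1.38, 1.18, 0.811 and 0.716 RPKM in those control pools and at 1.12, 1.89 and 4.60 RPKM after defeat, so per length its transcripts were scarce beside those of the chains. Its log2 fold change of 0.66, the lowest of the 16, is understated, since log2(value + 1) shrinks changes near 1 RPKM. The Alas2 means were 1.02 RPKM in controls and 2.38 RPKM after defeat. Hba-a1 was at 26.4, 23.0, 12.6 and 13.5 RPKM in controls against 24.1, 35.9 and 85.4 RPKM. Its 6 defeat pools all lay above the control median of 18.2 RPKM. In bulk tissue, more cells of a type and more RNA per cell cannot be told apart.

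In the NAc of the same rearing group, Hbb-b1 was at 561, 631, 444 and 513 normalised reads in controls and at 775, 933 and 1812 after defeat. The groups did not overlap for any of the 4 genes there, which holds in the higher direction for 0.343% of all genes tested. The log2 fold changes were 0.95 ± 0.25 (SE) for Hba-a1, 1.08 ± 0.26 for Hba-a2, 1.02 ± 0.25 for Hbb-b1 and 0.86 ± 0.26 for Alas2, with n = 6 and 4 pools. In PFC, Hbb-b1 ran over 462, 694 and 857 normalised reads in 6 controls and over 674, 1161 and 6224 after defeat. A single mouse, numbered 2, carried the value of 6224, and without it the log2 fold change of Hbb-b1 was 0.66 in place of 1.09. In HIP it ran over 563, 729 and 1175 in controls and over 675, 1436 and 4393 after defeat, with 4 of 6 defeated mice above every control. Without the libraries that stood apart, the log2 fold change of Hbb-b1 was 1.35 in place of 1.09 in PFC and 1.43 in place of 1.16 in HIP. In VTA, PFC and HIP the groups of all 4 genes overlapped, and non-overlap in the higher direction held for 0.398%, 0.0571% and 0.214% of all genes.

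**Figure D1:**
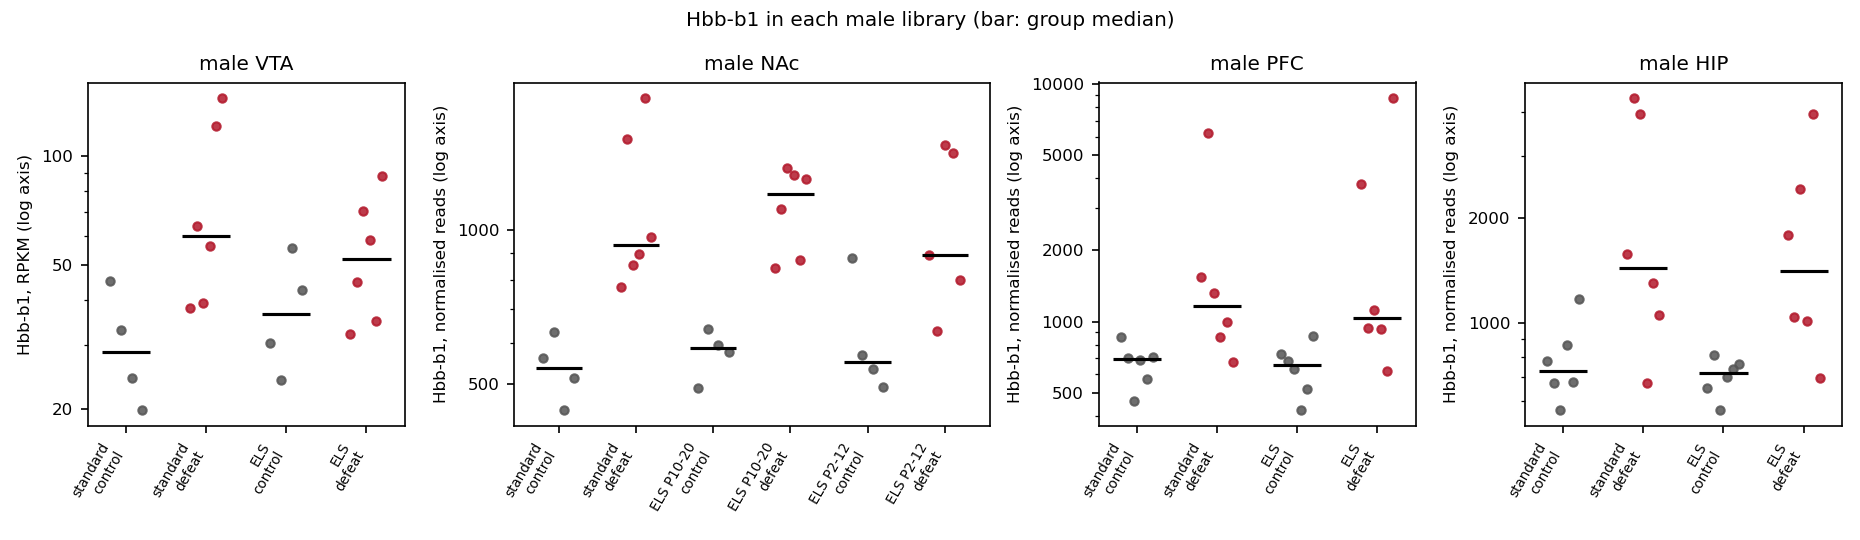
Hbb-b1 in each male library, by region, rearing and adult group, on a log axis in RPKM for VTA and in normalised reads for NAc, PFC and HIP; points are libraries, red after defeat, and bars are group medians. In each region the defeat medians lie above the control medians of the same rearing, and in PFC single mice reach 6224 and 8707 normalised reads.

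Males with early life stress lie outside the comparison that chose the genes. Genes and tests were still chosen with earlier results of these data known. Of all genes tested, 48.2% to 59.2% were higher after defeat in the 5 comparisons. All 20 values (4 genes in VTA, PFC, HIP and 2 NAc groups) were higher than in controls of the same early life stress. The 4 genes share reads and libraries, so the 20 values are not independent. The log2 fold changes ran from 0.40 to 1.51 with a median of 0.92, or 1.32-fold to 2.86-fold. No value passed the threshold of an adjusted p under 0.05 over all genes. The limma adjusted p ran from 0.233 to 0.972, and 13 of the 20 had an unadjusted p under 0.05. Limma called no gene in these 5 comparisons (0.0% of genes in each), and edgeR none in the 4 outside VTA, where it could be run. At an unadjusted p under 0.05 limma gave 667 genes in VTA, 1178 and 1080 in the NAc after late and early stress, 2337 in PFC and 1103 in HIP, and edgeR gave 1198, 995, 2401 and 1388 in those 4.

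In the VTA after early life stress, Hbb-b1 was at 30.4, 23.9, 55.7 and 42.8 RPKM in controls and at 32.1, 51.8 and 88.4 RPKM after defeat. The ranges overlapped broadly, with 3 of 6 defeat pools above every control. The log2 fold change was 0.49 ± 0.38 (SE, limma adjusted p = 0.972), and those of Hba-a1, Hba-a2 and Alas2 were 0.43, 0.41 and 0.43. The value for Alas2 is again understated, with means of 1.04 RPKM in controls and 1.78 RPKM after defeat. Without control pool 2, the lowest, Hbb-b1 gave 0.30, Hba-a1 0.19 and Hba-a2 0.20. None of the 4 had an unadjusted p under 0.05 there, which 2.65% of all genes had in the higher direction. Hba-a1 was at 20.2, 13.4, 36.8 and 26.8 RPKM in controls and 18.4, 29.3 and 53.3 RPKM after defeat.

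In the NAc after stress on days 10 to 20, the alpha and beta chain genes separated the groups. Hba-a1 was at 285, 311, 387 and 355 normalised reads in control pools and at 473, 602 and 802 after defeat. Hba-a2 was at 197, 227, 261 and 265 in controls and at 361, 486 and 648 after defeat. Hbb-b1 was at 490.3, 640.0, 596 and 577 in controls and at 842, 1178 and 1320.4 after defeat. Every defeat pool exceeded every control pool for these 3 genes, as for 0.507% of all genes in the higher direction. The log2 fold changes were 0.88, 1.03 and 0.93 with an SE of 0.25 to 0.26 (limma adjusted p = 0.496 for each). The exact two-sided permutation p was 0.00952 for each, the smallest that 6 against 4 pools allow. Alas2 was at 30.3, 41.5, 40.5 and 58.7 in controls and at 55.6, 95.7 and 134 after defeat, so that 5 of 6 pools exceeded every control. Its log2 fold change was 1.13 ± 0.26 (SE, limma adjusted p = 0.447, exact permutation p = 0.0190). All 4 had an unadjusted p under 0.05, which 3.3% of all genes had in the higher direction.

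In the NAc after stress on days 2 to 12, Hbb-b1 was at 880.2, 569, 535 and 493 normalised reads in controls and at 895, 636, 1468, 1417 and 799.9 after defeat. The highest control lay above the lowest 2 defeat pools. The log2 fold change was 0.71 ± 0.26 (SE, limma adjusted p = 0.570, exact permutation p = 0.0476). Hba-a1, Hba-a2 and Alas2 gave 0.47, 0.40 and 0.53, and none of the 3 had an unadjusted p under 0.05, against 3.44% of all genes in the higher direction. Alas2 was at 102, 51.8, 60.3 and 44.4 in controls and 79.3, 67.5, 119, 133 and 66.9 after defeat, and here too 1 control pool lay high.

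In the PFC after early life stress, the fold changes depended on the highest mouse. Hbb-b1 ran over 423, 658 and 869 normalised reads in 6 controls and over 617, 1030.4 and 8707 in 6 defeated mice. The 2 highest, mice 6 and 1, lay at 8707 and 3807, and 5 of 6 exceeded every control. Hba-a1 ran over 170.1, 419.6 and 613 in controls and over 439.9, 706 and 5437 after defeat. Alas2 ran over 49.5, 63.5 and 95.4 in controls and over 69.3, 99.9 and 709.6 after defeat. For Alas2 the 6 defeated mice all lay above the control median, 3 of them above every control. The log2 fold changes were 1.51 ± 0.56 (SE) for Hba-a1, 1.47 ± 0.56 for Hba-a2, 1.40 ± 0.55 for Hbb-b1 and 1.15 ± 0.49 for Alas2, with limma adjusted p from 0.233 to 0.259 and exact permutation p from 0.0152 to 0.0238. In this comparison 7.84% of all genes had an unadjusted p under 0.05 in the higher direction. Without mouse 6 the values were 1.06, 1.02, 0.92 and 0.69 in the same order, while the count test of edgeR, in which a single high mouse weighs more, gave 2.08 for Hbb-b1 (edgeR adjusted p = 0.179).

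In the HIP after early life stress, Hba-a2 ran over 189, 313 and 395 normalised reads in controls and over 343, 689 and 1903 after defeat. Hbb-b1 ran over 563, 719 and 809 in controls and over 695, 1412 and 3960.2 after defeat. For both genes 5 of 6 defeated mice exceeded every control. The log2 fold changes were 1.19 for Hba-a1, 1.26 for Hba-a2 and 1.12 for Hbb-b1, with an SE of 0.40 to 0.41, and 0.92 ± 0.40 for Alas2. The limma adjusted p ran from 0.455 to 0.562 and the exact permutation p from 0.00433 to 0.0173, in a comparison where 4.76% of all genes had an unadjusted p under 0.05 in the higher direction. Without the libraries that stood apart, among them the highest mouse, the value for Hbb-b1 was 0.92 ± 0.47 (SE, limma adjusted p = 0.808).

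Whether early life stress alters the rise after defeat was asked by the difference of the 2 effects, given in males without a test because it holds the comparison that chose the genes. For Hbb-b1 the effect after early life stress minus that after standard rearing was -0.70 ± 0.54 (SE, log2) in VTA. It was -0.08 ± 0.35 in NAc for late and -0.30 ± 0.35 for early stress, 0.30 ± 0.78 in PFC and -0.04 ± 0.57 in HIP. Outside the VTA each of these Hbb-b1 differences was smaller than its standard error. For early stress in NAc the differences were larger for the alpha genes, at -0.48 ± 0.36 (SE) for Hba-a1 and -0.68 ± 0.38 for Hba-a2, and all 4 members were below 0. Without the libraries that stood apart, Hbb-b1 gave 0.05 ± 0.89 (SE) in PFC and -0.51 ± 0.68 in HIP.

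**Figure D2:**
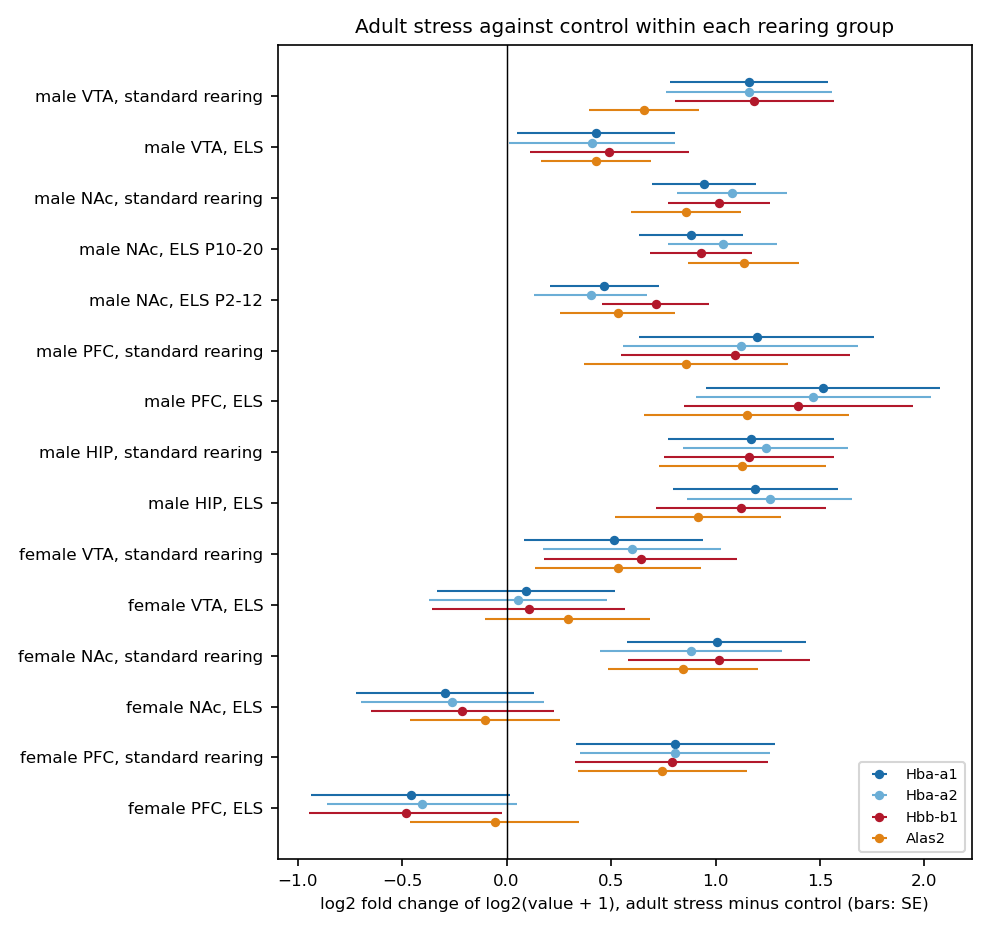
Log2 fold change of each of the 4 genes after adult stress against the controls of the same rearing, for every region and sex; points are limma estimates on log2(value + 1) and bars are standard errors. All 36 male points lie above 0, the 12 female points after standard rearing also do, and 8 of the 12 female points after early life stress lie below it.

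In females of standard rearing 1 library per region lay far above all others. After standard rearing and variable stress, Hbb-b1 in VTA was at 5052, 779.6, 943, 441 and 612 normalised reads, against 384, 649 and 933 (lowest, median, highest) in 6 controls. In NAc it was at 4461, 416, 526, 367 and 709, against 308, 364 and 479.8 in controls. In PFC it was at 4517, 417, 560.3, 342 and 544, against 377, 419 and 454 in controls. The library numbered 1 was the high one in all 3 regions. With it, 2 of 5 stressed mice in VTA, 3 of 5 in NAc and 3 of 5 in PFC exceeded every control for Hbb-b1. The labels do not say whether libraries of 1 number come from 1 animal.

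The fitted log2 fold changes of this female comparison were 0.64 in VTA, 1.02 in NAc and 0.79 in PFC for Hbb-b1. Of all genes tested, 51.7% to 58.6% were above 0 in the 3 regions. All 12 values of the 4 genes were above 0, from 0.51 to 1.02. Their limma adjusted p ran from 0.730 to 0.861, and 3 of the 12, all in NAc, had an unadjusted p under 0.05. In that direction 2.74% of all genes had such a p in VTA, 3.39% in NAc and 3.11% in PFC. Without the library numbered 1 the Hbb-b1 values were 0.06 in VTA, 0.38 in NAc and 0.13 in PFC, and those of Alas2 were -0.05, 0.28 and 0.11. When the libraries that stood apart were left out, all of them numbered 3 and none numbered 1, the Hbb-b1 values were 0.77, 1.15 and 0.88. Alas2 in NAc was at 353, 50, 44.3, 51.1 and 53.3 after stress and at 36.6, 40.0 and 48.3 in controls. There 4 of 5 stressed mice exceeded every control, with an exact permutation p of 0.00866 and a Benjamini-Hochberg value of 0.0680 over the 44 exact tests. With edgeR, Hbb-b1 gave 1.23, 1.77 and 1.58 in the 3 regions (edgeR adjusted p = 0.83, 0.738 and 0.951). Neither tool called any gene, and at an unadjusted p under 0.05 limma and edgeR gave 621 and 639 genes in VTA, 862 and 818 in NAc, and 706 and 617 in PFC.

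After early life stress, variable stress left the 4 genes near or under the level of the female controls. In VTA, Hbb-b1 was at 739, 589, 639, 531 and 422 normalised reads in controls and at 356, 659 and 1238 after stress. In NAc it was at 512, 427, 492, 357 and 288 in controls and at 269, 352 and 472 after stress. In PFC it was at 681, 418, 482, 313 and 347 in controls and at 203, 337 and 423 after stress. No stressed mouse reached the highest control in NAc or PFC, but the ranges overlapped. Most genes lay slightly lower in these comparisons, with 42.4% of all genes tested above 0 in VTA, 42.15% in NAc and 45.8% in PFC. The 12 log2 fold changes of the 4 genes ran from -0.48 to 0.29, 4 above 0 and 8 below, and none had an unadjusted p under 0.05. Without the NAc library that stood apart, Hbb-b1 there gave -0.18. In the higher direction 0.514%, 1.34% and 1.71% of all genes had one in VTA, NAc and PFC. Neither tool called any gene, and at an unadjusted p under 0.05 limma and edgeR gave 187 and 193 genes in VTA, 308 and 342 in NAc, and 455 and 453 in PFC.

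The difference between the rearing groups was tested in females. For Hbb-b1 the effect of variable stress after early life stress minus that after standard rearing was -0.54 ± 0.65 (SE, log2, limma adjusted p = 1.00) in VTA. It was -1.23 ± 0.62 (limma adjusted p = 0.622) in NAc and -1.27 ± 0.65 (limma adjusted p = 0.633) in PFC. None of the 12 such tests passed the threshold, and no gene at all did with either tool (0.0%). At an unadjusted p under 0.05 limma and edgeR gave 332 and 313 genes in VTA, 1111 and 1057 in NAc, and 1108 and 1015 in PFC. In all 3 regions the standard-rearing side of the difference holds the library numbered 1. Without it the Hbb-b1 difference was 0.05 in VTA, -0.59 in NAc and -0.61 in PFC. With the libraries that stood apart left out it was -0.67, -1.32 and -1.37.

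**Figure D3:**
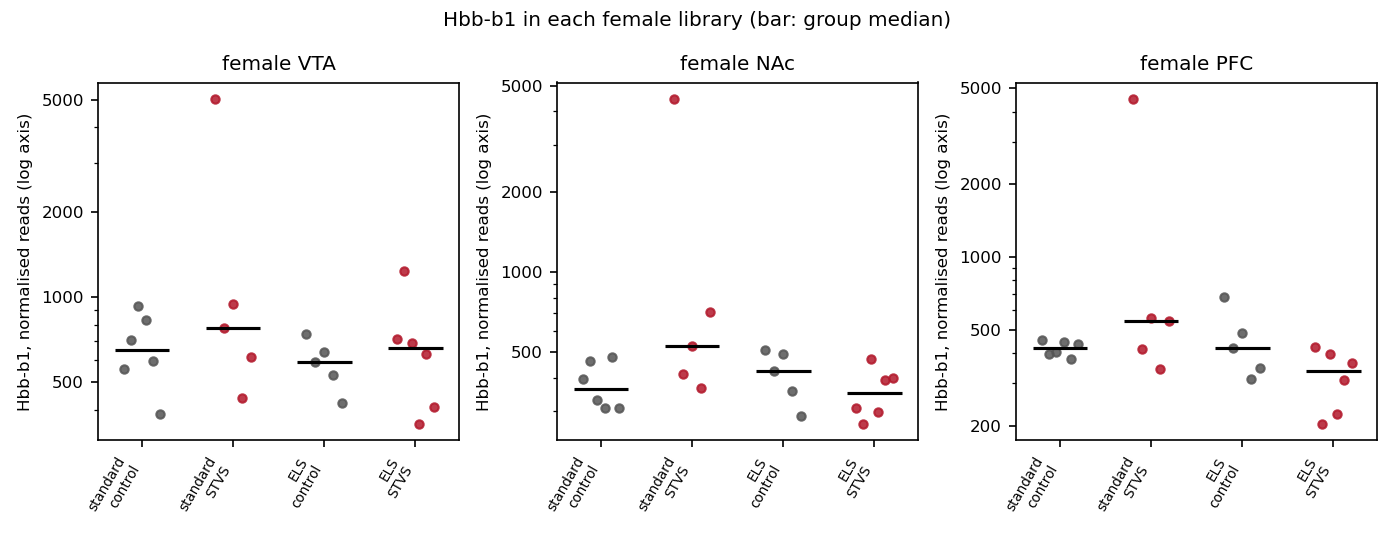
Hbb-b1 in each female library in normalised reads on a log axis, by region, rearing and adult group; points are libraries, red after variable stress, and bars are group medians. In the group with standard rearing and variable stress 1 library per region lies at 4461 to 5052, and the remaining libraries lie between 203 and 1238.

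Early life stress without adult stress moved none of the genes past the test. It shares its standard-reared controls with the adult stress comparison. Over the 8 comparisons and 4 genes, 14 values were higher and 18 lower, from -0.35 to 0.39 on the log2 scale with a median of -0.01. The smallest unadjusted limma p was 0.196, and the smallest limma adjusted p was 0.856. An unadjusted p under 0.05 in either direction was reached by 2.03% of all genes in male VTA, 6.77% and 3.46% in male NAc after late and early stress, 2.22% in male PFC and 6.46% in male HIP. In females it was reached by 4.22% in VTA, 11.2% in NAc and 3.29% in PFC. Limma called no gene in any of these comparisons and edgeR none in the 7 outside male VTA. At an unadjusted p under 0.05 limma gave 296 to 1569 genes and edgeR 327 to 1499. Hbb-b1 without the libraries that stood apart gave 0.06 in place of -0.06 in male PFC, 0.14 in place of -0.13 in male HIP and -0.05 in place of -0.16 in female VTA.

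Over the 44 exact permutation tests of single genes (11 comparisons by 4 genes), 14 gave p under 0.05 and none did after Benjamini-Hochberg adjustment, where the smallest value was 0.0680. All 14 pointed to higher levels after adult stress, and 13 of them came from males. The 4 genes share reads and libraries, so these tests are not independent of each other. The exact tests were run on the 4 genes only, so no share of all genes stands beside the count. With limma, 0.514% to 7.84% of all genes had an unadjusted p under 0.05 in the higher direction in the 11 comparisons.

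In the table that holds PFC, HIP and all female libraries, Hbb-b1 medians could be put in order. The lowest was 337 normalised reads in female PFC after both stresses. The 8 groups of female NAc and PFC had the lowest medians, up to 544. Female VTA groups and the male PFC and HIP controls followed, at 589 to 779.6. The 4 male defeat groups of PFC and HIP stood highest, at 1030.4, 1161, 1412 and 1436. The range of each group overlapped that of the next in this order, so no pair of neighbours differed beyond its spread.

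The levels of the 4 genes spread widely over the libraries, and their ratios to each other spread less. In normalised reads Hbb-b1 spanned 4.08-fold from lowest to highest library in male NAc, 20.6-fold in male PFC, 7.81-fold in male HIP and 14.2-fold, 16.6-fold and 22.2-fold in female VTA, NAc and PFC. In RPKM it spanned 7.34-fold in male VTA. Per length, the median ratio in male VTA was 0.850 for Hba-a2 to Hba-a1, 0.601 for Hba-a1 to Hbb-b1 and 0.0316 for Alas2 to Hbb-b1. In the pool with the highest Hbb-b1 there, the Alas2 ratio was 0.0317. In reads, the Alas2 to Hbb-b1 ratio had a median of 0.102 in male PFC and was 0.0815 in the mouse at 8707 reads of Hbb-b1. In female PFC it had a median of 0.110 and was 0.0967 in the mouse at 4517. In female NAc it had a median of 0.114 and was 0.0792 in the mouse at 4461. Over single libraries this ratio ran from 0.0618 to 0.128 in male NAc, from 0.0654 to 0.136 in male PFC and from 0.0752 to 0.156 in female NAc. The high libraries were high in chains and enzyme alike, with a ratio below the median in male PFC, female PFC and female NAc. The top libraries of male NAc and male HIP also lay below, at 0.0823 and 0.0805 against medians of 0.0901 and 0.0904. The top library of female VTA lay above, at 0.0947 against 0.0924. The 4 genes together took 0.00149% to 0.0597% of the reads of a library, and Alas2 rested on 28 to 740 reads.

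**Figure D4:**
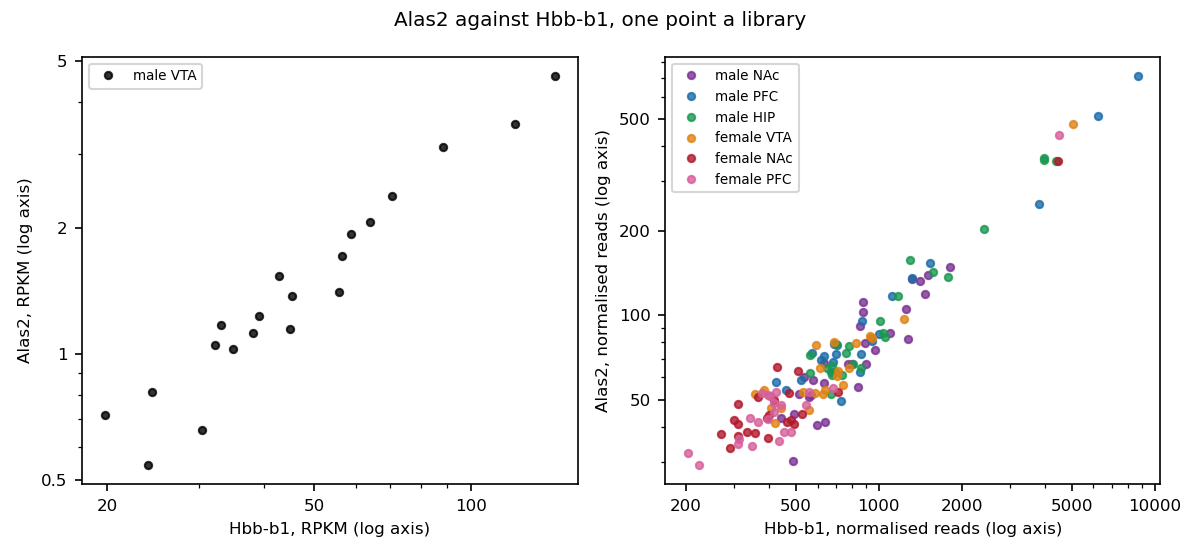
Alas2 against Hbb-b1, 1 point a library, in RPKM for male VTA (left) and in normalised reads for the other 6 region and sex sets (right), both axes logarithmic. The 2 genes rise together over the range from 203 to 8707 normalised reads of Hbb-b1, with the single high mice at its upper end. The points spread about this trend, as the ratio of Alas2 to Hbb-b1 in reads ran from 0.0618 to 0.158.

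After the group means were removed from log2(value + 1), Hba-a2, Hba-a1 and Alas2 followed Hbb-b1 with mean Pearson r of 0.97, 0.97 and 0.93 over the 7 region and sex sets (163 libraries). The points share libraries and, for the near-identical pairs, reads, and the r values describe these libraries only. Of the other genes among the 7347 compared, the 5 most alike were Hbb-b2 (mean r = 0.98), Ube2l6 (0.71), Cxcl12 (0.43), Kdr (0.40) and Eng (0.38). Hbb-b2 encodes a beta chain as well. Ube2l6 encodes an enzyme that attaches the ubiquitin-like protein ISG15, and its r lay between 0.53 and 0.86 in every set. It also stands in the list of red cell enzyme and reticulocyte genes given below. Kdr and Eng are endothelial receptors, and their r ran from -0.01 to 0.80 and from 0.01 to 0.64.

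**Figure D5:**
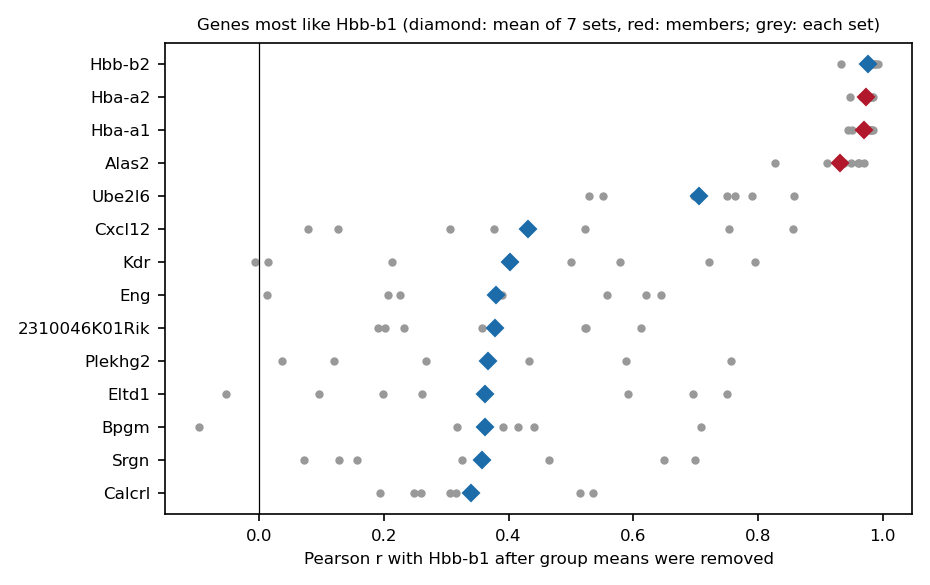
Pearson r of single genes with Hbb-b1 across libraries after group means were removed; grey points are the 7 region and sex sets and diamonds are their mean, red for the members and blue for other genes. Hbb-b2 and the members lie at 0.93 to 0.98, Ube2l6 at 0.71 and all others at 0.43 or below.

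Hbb-b2 gave log2 fold changes close to those of its neighbour: 0.55 in VTA, 1.09 and 0.66 in NAc, 1.56 in PFC and 1.29 in HIP in males with early life stress, and 0.65, 0.99 and 0.68 in females of standard rearing. The rest of the pathway is given by lists. Of the 8 haem synthesis genes outside the members, which act in all tissues, 4 to 8 were tested per region and none passed the test in any adult stress comparison, with medians from -0.03 to 0.06. Alas1, the housekeeping counterpart of Alas2, gave 0.01 in male PFC and -0.01 in male HIP after early life stress and defeat. Fech, which puts iron into haem, gave -0.02 and 0.03. Genes of haem and iron handling gave medians from -0.06 to 0.09, red cell membrane genes from -0.14 to 0.12, red cell enzyme and reticulocyte genes from -0.05 to 0.07 and erythroid regulators from -0.07 to 0.13, with no gene passing. The enzyme and reticulocyte list holds Ube2l6, named above for its likeness to Hbb-b1, so its median does not describe each of its genes. No gene at all passed in these comparisons, the 4 members included, so the test does not set these lists apart from the members. Only 3 to 7 of 14 membrane genes were abundant enough to be tested.

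In some of the libraries of highest Hbb-b1, a red cell membrane gene and a pair of neutrophil genes were high as well. In male PFC the 3 mice of highest Hbb-b1 also held the 3 highest values of Slc4a1, the band 3 anion exchanger of red cells, at 24.9, 56.0 and 25.4 normalised reads against a median of 2.85 in the others. The same 3 mice were the 3 highest for S100a8 and S100a9, calcium-binding proteins of neutrophils. S100a8 was at 24.0, 56.9 and 146 normalised reads against a median of 2.21, and S100a9 at 35.5, 105 and 286 against 3.94. In the female libraries numbered 1 after standard rearing and variable stress, Slc4a1 was at 33.7 in VTA, 27.2 in NAc and 28.0 in PFC, where the other libraries reached at most 7.29, 6.10 and 3.87. S100a9 was at 1.73, 2.27 and 0 there, within the range of the others. Slc4a1 was not high in every such library, as the female VTA library of second highest Hbb-b1 held it at 1.51, rank 15 of 22. Ube2l6 was at 188, 155 and 244 in the libraries numbered 1, against at most 145, 94.8 and 189 in the others. These values come from libraries picked for their Hbb-b1 and are a description.

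Markers of other cells moved in some of the same comparisons. In male PFC after early life stress and defeat, 15 of 15 endothelial genes were above the controls (6 at an unadjusted p under 0.05, median 0.17), and so were 10 of 10 pericyte (5, median 0.30) and 10 of 10 meningeal genes (6, median 0.88). In male HIP with early life stress the same counts were 15 of 15 (3, median 0.21), 10 of 10 (3, median 0.45) and 10 of 10 (4, median 1.25). Of all genes, 7.84% in PFC and 4.76% in HIP had such a p in that direction. Whatever their p, 49.2% of all genes tested in PFC and 49.8% in HIP were above the controls. The summed endothelial level ran from 14904 to 17706 normalised reads in PFC controls and from 15875 to 22025 after defeat, and from 15942 to 18695 and from 16292 to 28007 in HIP. The summed meningeal level ran from 3761 to 17837 and from 9682 to 31639 in PFC, and from 8947 to 45351 and from 12055 to 133505 in HIP. No marker of these lists was at 0 in every library. In the NAc after stress on days 2 to 12 the 4 genes were also above controls. There 0 of 11 endothelial genes were higher, against 49.5% of all genes tested. Of the 11, 5 were lower at an unadjusted p under 0.05, as were 4.27% of all genes, and the endothelial median was -0.14. In male VTA the endothelial medians were -0.01 after standard rearing and -0.06 after early life stress. In male HIP of standard rearing 10 of 12 choroid plexus genes were lower at an unadjusted p under 0.05 (median -3.64), as were 8.85% of all genes, with sums of 2673 to 443227 normalised reads in controls and 2575 to 4468 after defeat. The part of these cells in the globin values was not tested.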

How the data were processed

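Poly-A RNA was sequenced with an unstranded kit, per the labels' protocols. The male NAc table and the table of PFC, HIP and females hold a signal in normalised reads, which the authors deposited after scaling each library's gene counts. The male VTA table holds RPKM as the authors deposited it. TopHat2, HISAT and HTSeq are tools that the submitters' processing notes name, beside builds mm9 and mm10, without roles. All positive normalised values (100%, tolerance 0.001) were integer steps of a library's single-read value, so that counts were recovered. Tables were normalised separately, and tests stayed within a table.

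Limma 3.58.1 in R 4.3.3, with its trend and robust options, modelled log2(value + 1) separately for every region and sex, 1 coefficient per group, over the 14000 genes of highest mean or, in male VTA, the 14586 of mean RPKM at or above 0.5. Benjamini-Hochberg adjusted p under 0.05 was the threshold. Fold changes on this scale understate those of low genes. All 4 members passed the filter in all 7 sets. Exact permutation tests used single genes. The limma script was tested on simulated data. Alternatives were edgeR 4.0.16 on recovered reads, no filter, quantile normalisation, a pseudocount of 0.1, a replicate block, summed pairs, only the groups compared, leaving out libraries, and, added later, a minimum mean of 10 reads in male NAc. The members, lists and tests were chosen with earlier results of these data known. Named genes are the members, the first genes of each list and the 5 non-members most like Hbb-b1. Of 179 samples, the 16 of chromatin or input were left aside. Limma p-values rest on the spread between libraries within groups, which are separate pools or mice, per the labels. That spread was estimated over all groups of a region and sex and drawn toward that of other genes. In males it therefore includes the groups of the comparison that chose the genes. Permutation p-values use only the libraries of the groups compared. Titles of male NAc give no replicate number, so its numbers are only names. Symbols came from the file of the male VTA table, and RefSeq sequences were matched by symbol, or for Hbb-b1 by its first transcribed bases. Proteins were not used here.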

Additional observations from a re-analysis of the deposited data

Results flagged for a closer look

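Of 120 combinations of gene and group, 18 had a library apart from the rest of its group. The rule flags about 1 in 20 groups when values are normally distributed and groups independent. Here it was applied to untransformed values of genes that move together, and not to other genes. The count therefore cannot be read as an excess over chance. In male PFC of standard rearing, defeated mouse 2 lay highest at 4658 normalised reads of Hba-a1, 3353 of Hba-a2, 6224 of Hbb-b1 and 510.5 of Alas2. In male PFC with early life stress, defeated mouse 6 lay highest for Alas2 at 709.6.

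The female library numbered 1 after standard rearing and variable stress lay apart for all 4 genes in all 3 regions. In VTA it held 2943 normalised reads of Hba-a1, 2148 of Hba-a2, 5052 of Hbb-b1 and 478.6 of Alas2. In NAc it held 2569, 1967, 4461 and 353.5 in the same order. In PFC it held 2719, 2047, 4517 and 436.8. The 5th female VTA control with early life stress lay lowest of its group for Alas2, at 41.3.

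In female NAc every stressed mouse of standard rearing lay above its control median for Hba-a2, and every stressed mouse with early life stress lay below its own. The difference of the effects was -1.142 on the log2 scale, with an SE of 0.62 and a limma adjusted p of 0.630.

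Among males, the defeated mouse numbered 2 of standard rearing was the highest of its group in both PFC (6224) and HIP (4393) for Hbb-b1. In the group with early life stress and defeat, number 6 held 8707 in PFC and 695 in HIP. Among female controls with early life stress, numbers 1 and 3 were the 2 highest in all 3 regions. The labels tie no libraries of different regions to 1 animal.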

How the results depend on the processing

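No alternative took a member past the adjusted threshold. The smallest adjusted p was 0.0658, for Hba-a2 in male NAc after late early life stress and defeat when only the groups compared were fitted, and over all settings the adjusted p of that value ran from 0.0658 to 0.977. The number of genes called rose from 0 to 1 for the difference of the early stress groups in male NAc without a filter, with a pseudocount of 0.1 and with only the groups compared, and to 1 for female VTA after both stresses without a filter. In male PFC with early life stress it was 0 to 35 when 1 library was left out, the 35 without control 1. Without the libraries that stood apart, the effect of early life stress alone on Hbb-b1 turned from -0.06 to 0.056 in male PFC and from -0.13 to 0.14 in male HIP. The cause was not tested.

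With 1 library left out, the Hbb-b1 value of early life stress alone ran from -0.0039 to 0.27 in male NAc (early), from -0.16 to 0.053 in male PFC and from -0.12 to 0.16 in female PFC. The difference between rearing groups ran from -0.18 to 0.07 in male NAc (late), from -0.18 to 0.73 in male PFC, from -0.31 to 0.23 in male HIP and from -0.83 to 0.047 in female VTA. In female VTA of standard rearing, Hba-a1 ran from -0.021 to 0.76 and Alas2 from -0.045 to 0.79. With early life stress there, Hba-a1 ran from -0.10 to 0.26, Hba-a2 from -0.15 to 0.23 and Hbb-b1 from -0.095 to 0.26, and Alas2 ran from -0.22 to 0.021 in female NAc and from -0.14 to 0.044 in female PFC. In males the adult stress values of all 4 genes stayed above 0 with any 1 library left out.

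Replicate numbers gave no firm pairing. In female VTA 18 of 31 same-number pairs correlated above 0.1, and in male VTA 8 of 26. With the replicate block, Hbb-b1 after early life stress and defeat gave 0.22 in male VTA, in place of 0.49, and 1.40 in male PFC, and no call changed. No paired analysis was possible in male NAc because its titles carry no number within a group. Depth limits Alas2 most, at 28 reads in the lowest library.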
